A study of Mus musculus with 7 samples.

Results

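The 10 genes described here make, load and regulate MHC class I molecules, and their levels were read in 7 RNA-seq libraries of sorted mouse intestinal stroma. They are B2m, H2-K1, H2-D1, Tap1, Tap2, Tapbp, Psmb8, Psmb9, Psmb10 and Nlrc5, taken by symbol from a deposited table of 24908 gene symbols. Where a symbol occurred more than once, the entry with the highest mean was used. No level or test entered the choice of the 10, although it was made with earlier results of these data known.

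MHC class I molecules show short peptides from inside a cell to CD8 T cells, and nearly all nucleated cells carry them. Proteasomes cut the proteins, a transporter moves the peptides into the endoplasmic reticulum, and a heavy chain paired with beta-2-microglobulin takes them to the surface. Interferon gamma is a strong inducer of every step, through IRF1 and the transactivator NLRC5, and stromal fibroblasts respond to it.

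The cells were sorted from intestinal mesenchyme as Pdgfra-low and CD81+, a fibroblast population that lies below the crypts. Libraries came from 3 wildtype controls (n = 3), from mice 4 days after Apc inactivation (n = 2) and from mice 6 days after it (n = 2). Both knockout groups carried Apcflox/flox and the Villin-CreERT2 driver, which acts in epithelium, so Apc was targeted in the neighbours of the sorted cells and not in the sorted cells. The genotype, inducer treatment and day of the wildtype mice, the ages and the H2 haplotype are not given in the sources used here. Nothing says that libraries came from separate animals, so a p-value here reflects the variation among these libraries alone, which may be technical.

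The column names carry 4d for the day 4 knockout pair and 1 control, here called the day 4 set, and 6d for day 6 knockout replicate 1 and the other 2 controls, here called the day 6 set. Nothing says that the libraries of a set were handled together. The column taken as day 6 knockout replicate 2 names no day. It was the last knockout column left for the last knockout sample, and its place in the day 6 set was assumed. Medians and counts of the class I genes at day 6 are therefore also given without it.

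Levels are in FPKM, which divides the fragments of a gene by transcript length and by the mapped fragments of the library, so levels of different genes can be compared per length. Columns summed to between 351323 and 427369 FPKM, and 10914 to 11342 genes per library reached 1 FPKM. The sort marker Pdgfra ranged from 54.3 to 134 FPKM and Cd81 from 32.4 to 169 FPKM, with the lowest Cd81 in day 4 knockout replicate 2. Apc, which the driver does not target in stroma, ranged from 2.22 to 3.29 FPKM and does not check the labels. The stromal matrix gene Dcn is listed at 0 in the control of the day 4 set and at 7745 to 11783 FPKM in the other 6 libraries. Day 4 knockout replicate 2 had the lowest summed pan-leukocyte markers, 4.27 FPKM, against 25.2 to 78.2 FPKM in the others. In bulk RNA, fewer cells of a type and less RNA per cell cannot be told apart.

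Promoters of the class I chains and of the shared Tap1 and Psmb9 start are shown first, to set side by side which interferon, NF-kappaB and other motifs their letters hold. RefSeq windows on GRCm38.p6, from 250 bases before to 50 bases after the start, matched 8 of the 10 genes. Tap2 and Nlrc5 were not matched. Only bases before the start are printed, 5′ to 3′ along the gene's strand. Capitals in H2-K1 and H2-D1 mark the NF-kappaB consensus and, after it, TTTCACTTC. H2-K1 lies at chr17:34000354-34000483 (minus strand) and H2-D1 at chr17:35262898-35263027 (plus strand).
H2-K1: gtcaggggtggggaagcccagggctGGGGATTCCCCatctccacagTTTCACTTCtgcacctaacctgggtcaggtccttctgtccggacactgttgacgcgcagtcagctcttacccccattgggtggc
H2-D1: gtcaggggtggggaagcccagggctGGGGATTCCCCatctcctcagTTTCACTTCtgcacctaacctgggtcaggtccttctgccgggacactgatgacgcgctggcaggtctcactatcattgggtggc

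The stretches of the 2 heavy chain genes are close in sequence, with 119 of 130 aligned bases identical (91.5%), and the capital elements are the same in both. Likeness of this kind extends into the transcripts of H2 heavy chain genes, and the way reads were shared between such copies is not given in the sources used here. The split of reads between H2-K1, H2-D1 and their relatives is therefore uncertain.

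For the light chain, capitals mark GAAA with another GAAA after any 2 bases, the core of the interferon-stimulated response element, and then the NF-kappaB consensus. The stretch lies at chr2:122147537-122147666 (plus strand), on another chromosome than the heavy chains.
B2m: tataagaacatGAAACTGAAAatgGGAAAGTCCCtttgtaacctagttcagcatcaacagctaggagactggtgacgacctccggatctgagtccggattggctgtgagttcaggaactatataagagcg

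Tap1 and Psmb9 are transcribed away from each other with 225 bases between their starts, so their windows overlap by 275 bases. The sequence between the starts, chr17:34187331-34187555, is printed on the plus strand, the strand of Tap1. Capitals mark CCAAT and TGACG, part of the cAMP response element.
Tap1-Psmb9: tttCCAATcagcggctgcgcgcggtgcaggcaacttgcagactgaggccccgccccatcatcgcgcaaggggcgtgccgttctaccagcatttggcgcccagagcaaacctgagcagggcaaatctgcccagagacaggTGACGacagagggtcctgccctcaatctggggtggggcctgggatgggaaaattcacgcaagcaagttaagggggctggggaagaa

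Motifs were searched on both strands of the 300-base windows, and overlapping matches were counted once per window. Only exact matches to each pattern were counted, so a window without a match may still hold a variant of the motif. The GAAA pair was found in 1 of 8 windows, B2m, and in 3.45% of 32544 windows of the same length. The NF-kappaB consensus was found in 3 of 8 (B2m, H2-K1 and H2-D1) and in 4.53% of all windows. CCAAT occurred in 6 of 8 against 37.4%, and TGACG in 5 of 8 against 20.9%. TTCNNNGAA, the gamma-activated site, occurred in 1 of 8, Psmb8, against 8.33%. TTTCACTTC, which was chosen after the sequences were seen, occurred in 2 of 8 against 0.507%. The windows of Tap1, Psmb9, Tapbp and Psmb10 held neither the GAAA pair, the gamma-activated site nor the NF-kappaB consensus. The Tap1 and Psmb9 windows share most of their bases and so count nearly the same sequence in both. The printed stretches of H2-K1 and H2-D1 are also 91.5% identical, so matches in these 2 genes do not count as independent. H2-K1 and H2-D1 hold both TTTCACTTC matches and all NF-kappaB matches but that of B2m.

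Wildtype cells held B2m, H2-D1 and H2-K1 among their most abundant mRNAs. B2m, the invariant light chain, ranked 9th of 11735 tested genes with 3502 ± 191 FPKM (SD, n = 3). H2-D1, a classical heavy chain, ranked 16th with 2398 ± 401 FPKM, and H2-K1, also a classical heavy chain, ranked 35th with 1206 ± 233 FPKM. These 3 levels, in FPKM, did not overlap each other over the controls. A gene was tested if 2 or more libraries held 1 FPKM or more, and all 10 class I presentation genes were among them. The median tested gene stood at 8.0 FPKM in controls.

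The machinery that makes and loads peptides stood lower. Tapbp, tapasin, which bridges the transporter and the empty heavy chain, was at 244 ± 28.7 FPKM in controls. Psmb8, an immunoproteasome catalytic subunit, was at 69.4 ± 10.9 FPKM, and its partners Psmb10 and Psmb9 were at 48.1 ± 6.73 and 34.5 ± 10.5 FPKM. The transporter subunits Tap2 and Tap1 were at 52.0 ± 8.71 and 35.3 ± 12.8 FPKM. Nlrc5, the transactivator, was near the filter with 1.36 ± 0.456 FPKM and ranked 10781st. From Psmb8 through Tap2, Psmb10 and Tap1 to Psmb9, each neighbour in the order of FPKM levels overlapped the next over the 3 controls. Tapbp lay below H2-K1 and above Psmb8 without overlap, and Nlrc5 lay below Psmb9 without overlap.

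**Figure D1:**
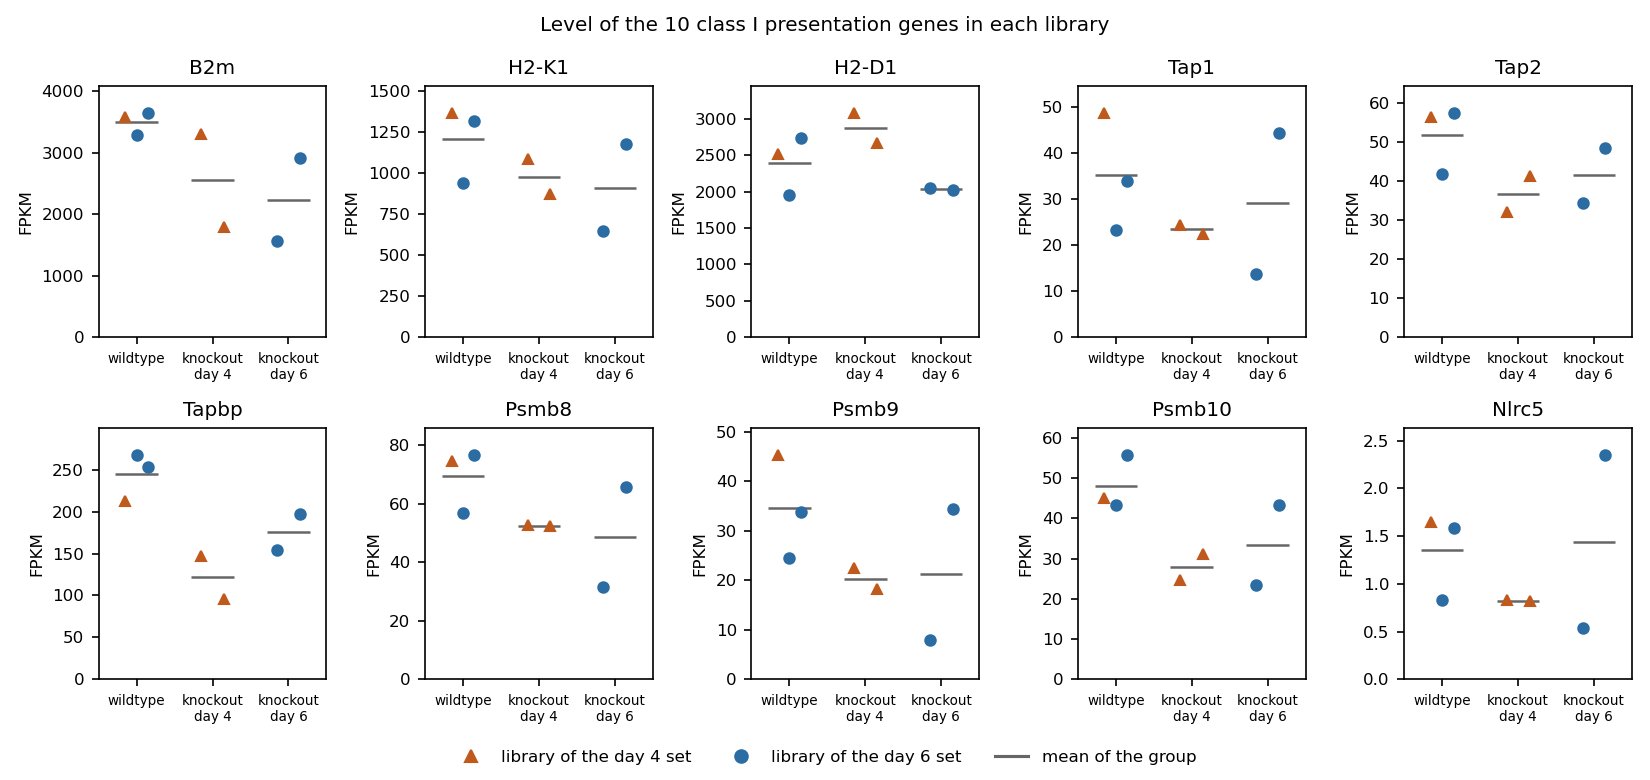
FPKM (linear axis from 0) of each of the 10 genes in the 3 wildtype, 2 day 4 and 2 day 6 knockout libraries, with triangles for libraries of the day 4 set, circles for the day 6 set and lines for group means. Tapbp is the gene whose 4 knockout libraries, 95.8 to 197 FPKM, all lie below its controls, 212 to 268 FPKM, and the 2 day 6 libraries stand far apart for most genes.

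After Apc inactivation in the epithelium, 9 of the 10 genes had a negative fitted log2 change at day 4 and all 10 at day 6, but none passed the test on either day. Of all 11735 tested genes, 6677 were negative at day 4 and 5977 at day 6, the background for such counts here and in the lists below. The model was limma, two-sided, on log2(FPKM + 1) with Benjamini-Hochberg adjustment over the 11735 genes and a threshold of 0.05. At day 4 it called 0 of 10, with 1.02% of all tested genes called in either direction. At day 6 it called 0 of 10, with 0.0426% called. Averaged over both days it called 0 of 10, with 0.162% called. At an unadjusted p under 0.05 the counts were 2 at day 4 (Tapbp and Psmb10), 0 at day 6 and 2 on average (the same pair), where 18.6%, 7.26% and 13.8% of all tested genes passed. No other test tool was run across genes.

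Across the 10 genes the log2 changes had a median of -0.50 at day 4 and -0.47 at day 6, where the medians over all tested genes were -0.06 and -0.01. Both comparisons use the same 3 controls, so their errors are shared. With controls of the same set only, the medians of the 10 genes were -0.59 and -0.44. The day 6 median rested on replicate 1. Without that library it was -0.07 with 7 of 10 negative, and without replicate 2 it was -0.94 with 10 of 10 negative. On average over both days, the median was -0.48, and it was -0.25 without day 6 replicate 1 and -0.79 without day 6 replicate 2.

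Both day 4 libraries lay below all 3 controls for 6 of the 10 genes, namely Tap2, Tapbp, Psmb8, Psmb9, Psmb10 and Nlrc5, and for 22% of all tested genes. Both day 6 libraries did so for 2 of 10, B2m and Tapbp, against 11.9%. All 4 knockout libraries did so for 1 of 10, Tapbp, against 6.58%, so the day 6 count and this one are near their backgrounds. None of the 10 had its knockout libraries above all controls, against 12.5% at day 4, 13.9% at day 6 and 5.32% over both days. The counts below the controls depended on single libraries. Without the first day 6 set control they were 9 at day 4, 7 at day 6 and 6 over both days, against 27.8%, 20.1% and 10.9% of all tested genes. Without day 4 replicate 1 the day 4 count was 9 against 31.0%, and the count over both days was 2 against 7.36%. Without day 6 replicate 2 the day 6 count was 9 against 32.0%, and the count over both days was 6 against 12.5%.

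**Figure D2:**
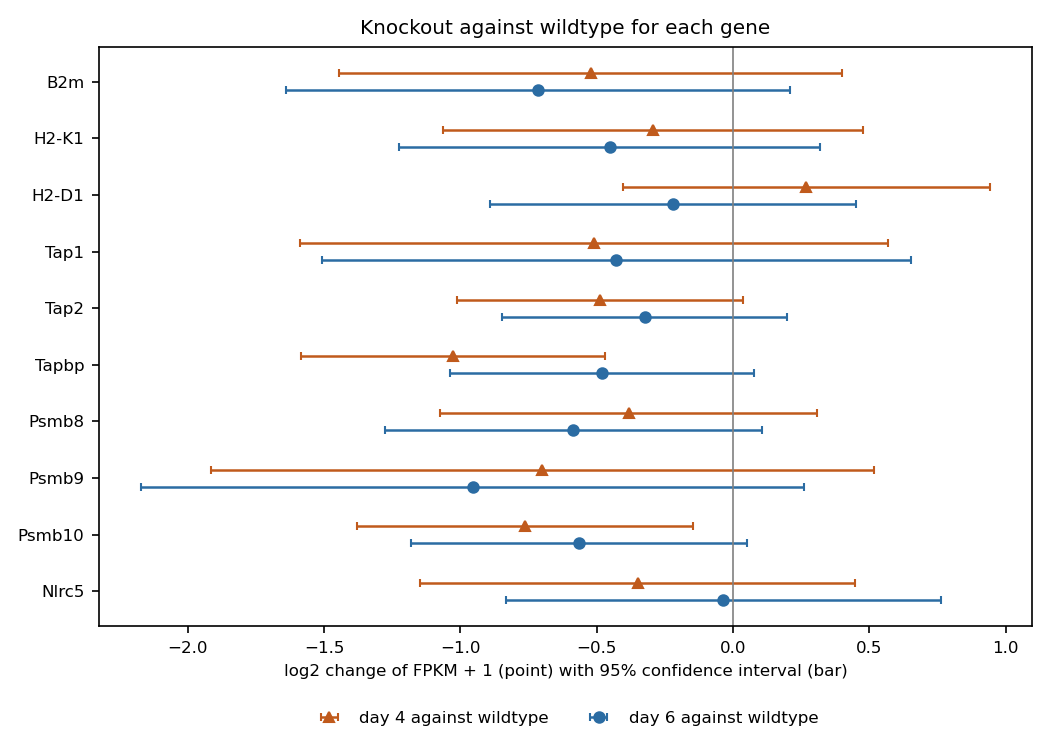
Fitted log2 change of FPKM + 1 against wildtype for each gene (points) with its 95% confidence interval (bars), at day 4 (triangles) and day 6 (circles). At day 4 the intervals of Tapbp and Psmb10 lie wholly below 0, at day 6 every interval spans 0, and no gene passed after adjustment over all genes.

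Tapbp had the smallest p of the 10 at day 4. Its controls stood at 212, 268 and 253 FPKM (the day 4 set control first, then the first and second day 6 set controls, an order kept for all control values). The day 4 knockout libraries stood at 147 and 95.8 FPKM and the day 6 libraries at 154 and 197 FPKM, replicate 1 first. Every knockout library was thus below every control, and the closest pair were day 6 replicate 2 and the day 4 set control. The log2 change was -1.03 ± 0.24 (SE) at day 4, with a 95% confidence interval from -1.58 to -0.47 and an adjusted p of 0.0973 in limma. Over 16 alternative settings this adjusted p ranged from 0.0611 to 0.607, so no setting called it. At day 6 the log2 change was -0.48 ± 0.24 (adjusted p = 0.733), and averaged over both days it was -0.75 ± 0.20 (adjusted p = 0.174). With controls of the same set, the log2 changes were -0.83 at day 4 and -0.58 at day 6.

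The transporter genes were less separated. Tap2 stood at 56.5, 42.0 and 57.6 FPKM in controls, at 32.1 and 41.4 FPKM at day 4, and at 34.5 and 48.6 FPKM at day 6. Only day 6 replicate 2 reached into the control range, and the first day 6 set control was close to day 4 replicate 2. The log2 change of Tap2 was -0.49 ± 0.23 at day 4 (adjusted p = 0.298) and -0.32 ± 0.23 at day 6 (adjusted p = 0.835).

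Tap1, which shares its promoter with Psmb9, varied more within groups than 95% of tested genes. Its controls stood at 48.7, 23.3 and 33.9 FPKM, the day 4 libraries at 24.5 and 22.5 FPKM, and the day 6 libraries at 13.8 and 44.5 FPKM. The first day 6 set control lay between the 2 day 4 knockout libraries, and day 6 replicate 2 was second only to the day 4 set control. The log2 changes were -0.51 ± 0.47 at day 4 and -0.43 ± 0.47 at day 6, and the latter was 0.38 without day 6 replicate 1.

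The immunoproteasome subunits replace the constitutive catalytic subunits when cells meet interferon, and change which peptides are cut. Psmb8 stood at 74.6, 56.8 and 76.7 FPKM in controls, at 52.7 and 52.4 FPKM at day 4, and at 31.4 and 65.7 FPKM at day 6. Psmb9 stood at 45.3, 24.4 and 33.8 FPKM in controls, at 22.5 and 18.2 FPKM at day 4, and at 7.92 and 34.5 FPKM at day 6. Psmb10 stood at 45.2, 43.3 and 55.8 FPKM in controls, at 24.7 and 31.2 FPKM at day 4, and at 23.5 and 43.4 FPKM at day 6. In all 3 subunits the day 4 libraries were below the controls, day 6 replicate 1 was below every control, and day 6 replicate 2 was within the control range.

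Psmb10 was the second gene with an unadjusted p under 0.05 at day 4. Its log2 change was -0.76 ± 0.27 (unadjusted p = 0.0217, adjusted p = 0.194 in limma), and at day 6 it was -0.57 ± 0.27 (adjusted p = 0.718). Psmb9 had the most negative day 6 value of the 10, -0.95 ± 0.52 (adjusted p = 0.764), and a day 4 value of -0.70 ± 0.52 (adjusted p = 0.524). Its spread within groups was larger than that of 96.3% of tested genes, and without day 6 replicate 1 the day 6 value was 0.04. The log2 change of Psmb8 was -0.38 ± 0.30 at day 4 (adjusted p = 0.542) and -0.59 ± 0.30 at day 6 (adjusted p = 0.736).

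Each immunoproteasome subunit takes the place of 1 constitutive subunit in the proteasome, so their ratio within a library is free of library scaling. The ratio of Psmb8 to Psmb5 FPKM was 1.66, 1.61 and 2.40 in controls, 0.999 and 0.716 at day 4, and 0.814 and 1.63 at day 6. Psmb10 to Psmb7 gave 1.51, 1.28 and 1.81 in controls, 0.794 and 0.716 at day 4, and 0.966 and 1.48 at day 6. Psmb9 to Psmb6 gave 0.684, 0.361 and 0.397 in controls, 0.317 and 0.215 at day 4, and 0.133 and 0.503 at day 6. For every pair the 2 day 4 libraries and day 6 replicate 1 were below all controls, and day 6 replicate 2 was inside the control range.

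**Figure D3:**
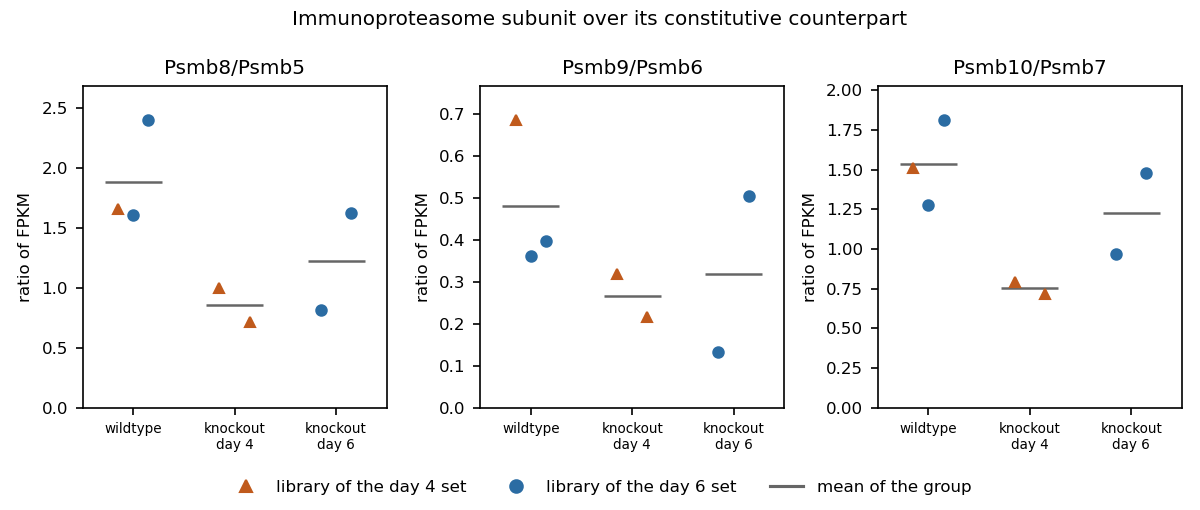
Ratio of FPKM of each immunoproteasome subunit to its constitutive counterpart (linear axis from 0) in each library, with triangles for the day 4 set, circles for the day 6 set and lines for group means. For each pair 3 of the 4 knockout libraries lie below the 3 controls and day 6 replicate 2 lies among them.

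The mean log2 ratio of the 4 knockout libraries minus that of the 3 controls was -0.91 for Psmb8 to Psmb5, -0.68 for Psmb10 to Psmb7 and -0.83 for Psmb9 to Psmb6. A two-sided exact permutation test over the 35 arrangements gave p = 0.114, 0.114 and 0.229, and 0.171, 0.171 and 0.229 after Benjamini-Hochberg adjustment over the 3 ratios. The smallest p this design allows is 0.0571, so no ratio could pass. Within the day 4 set the differences were -0.97, -1.0 and -1.39 in the order Psmb8, Psmb10, Psmb9, and within the day 6 set -0.77, -0.35 and -0.55. Psmb5, the counterpart of Psmb8, stood at 45.0, 35.4 and 32.0 FPKM in controls, at 52.7 and 73.1 FPKM at day 4, and at 38.6 and 40.4 FPKM at day 6. It was above its controls in both day 4 libraries, with a log2 change of 0.73 ± 0.21 and an adjusted p of 0.134 in limma.

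B2m stood at 3573, 3286 and 3648 FPKM in controls. The day 4 libraries stood at 3305 and 1794 FPKM and the day 6 libraries at 1559 and 2911 FPKM. Replicate 1 of day 4 lay inside the control range and the other 3 knockout libraries were below it, with a 0.543-fold difference of replicate 2 to replicate 1 at day 4. The log2 changes were -0.52 ± 0.40 at day 4 (adjusted p = 0.531) and -0.72 ± 0.40 at day 6 (adjusted p = 0.771).

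The 2 heavy chains did not share a pattern. H2-K1 stood at 1364, 938 and 1317 FPKM in controls, at 1083 and 870 FPKM at day 4, and at 644 and 1173 FPKM at day 6. H2-D1 stood at 2509, 1953 and 2732 FPKM in controls, at 3079 and 2660 FPKM at day 4, and at 2048 and 2028 FPKM at day 6. H2-K1 was lowest in day 6 replicate 1, whereas H2-D1 was nearly equal in the 2 day 6 libraries and highest in day 4 replicate 1. The log2 changes of H2-K1 were -0.29 ± 0.33 and -0.45 ± 0.33 at day 4 and day 6, and those of H2-D1 were 0.27 ± 0.29 and -0.22 ± 0.29. H2-D1 had the smallest spread within groups of the 10 genes on the log2 scale, and 37.2% of tested genes had a smaller one. The difference in log2 change between the 2 heavy chains was not tested, and reads of near-identical copies touch both.

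Nlrc5, which opens class I promoters and raises their transcription, stood at 1.65, 0.833 and 1.59 FPKM in controls, at 0.828 and 0.821 FPKM at day 4, and at 0.537 and 2.35 FPKM at day 6. The 2 day 4 libraries were just below the lowest control, and day 6 replicate 2 was the highest of all 7. Its log2 changes on the FPKM + 1 scale were -0.35 ± 0.34 at day 4 and -0.04 ± 0.34 at day 6, and this scale understates the change of a gene near 1 FPKM.

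The 2 day 6 knockout libraries stood apart for most of the 10 genes. Replicate 2 over replicate 1 gave a 4.38-fold ratio for Nlrc5, 4.35-fold for Psmb9, 3.23-fold for Tap1 and 2.09-fold for Psmb8. B2m, Psmb10 and H2-K1 had ratios of 1.87, 1.84 and 1.82, Tap2 and Tapbp of 1.41 and 1.28, and H2-D1 of 0.990. Replicate 1 was the lowest library for 7 of the 10 genes and among the lowest 3 for all 10. Replicate 2 was among the highest 3 libraries for 7 of the 10, next to the second day 6 set control, which was so for all 10, and the day 4 set control, which was so for 9. Relative depth, read roughly from the steps of low values, was 1.60 and 1.62 times that of the first day 6 set control in replicates 1 and 2. These ratios were held by only 42 of 1280 and 48 of 1261 low values compared, so they are a weak guide to depth.

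Between the knockout days, limma called 0 of 10 genes, with 0% of all tested genes called, and 0 of 10 had an unadjusted p under 0.05 against 11.5% of all tested genes (2.93% in the lower direction). The median log2 difference of day 6 minus day 4 was -0.04, with 5 of 10 negative. Tapbp had the smallest p, with a difference of 0.55 ± 0.26 (unadjusted p = 0.0731, adjusted p = 0.483 in limma). Without day 6 replicate 1 the median was 0.51 with 1 of 10 negative, and without day 6 replicate 2 it was -0.54 with 9 of 10 negative.

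The other steps of the pathway were read from lists chosen with earlier results of these data known, and limma called no gene of any of them at day 4, day 6 or on average. At an unadjusted p under 0.05, the lists other than that of interferon gamma held 0 to 2 genes in each of these comparisons, where 18.6% (day 4), 7.26% (day 6) and 13.8% (average) of all tested genes passed. Among peptide trimming and loading genes, 11 of 11 were tested, with 9 negative at day 4 and 6 at day 6 and medians of -0.31 and -0.12. Both day 4 libraries lay below all controls for 6 of 11 (22% of all tested genes), and both day 6 libraries for 0 of 11 (11.9%). Tapbpl had the lowest day 4 value of this list, -0.92 ± 0.22 (adjusted p = 0.103 in limma). Calr, Pdia3 and Canx, chaperones that hold the heavy chain while it is loaded, had average log2 changes of -0.30 ± 0.21, -0.34 ± 0.19 and -0.25 ± 0.15. Constitutive proteasome subunits and activators had 8 of 8 tested and medians of 0.05 and -0.12, near the medians of all genes. The day 4 median covered moves in both directions, since single genes ran from -0.49 to 0.73. In that list Psmb6, Psme1 and Pomp, a catalytic subunit, an activator and an assembly factor, had average log2 changes of -0.04 ± 0.15, -0.22 ± 0.18 and -0.02 ± 0.14.

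Other H2 class I heavy chains, most of them non-classical, had 16 of 23 listed genes tested, with 11 negative at day 4 and 9 at day 6 and medians of -0.32 and -0.03. H2-T23, the Qa-1 heavy chain that presents to NK cell receptors, stood at 264, 172 and 204 FPKM in controls, at 159 and 108 FPKM at day 4, and at 52.7 and 221 FPKM at day 6. It had the same library order as Psmb9, with day 6 replicate 1 lowest and the day 4 set control highest. Its average log2 change was -0.81 ± 0.45 (adjusted p = 0.481). H2-Q6 had an average log2 change of -0.01 ± 0.30 and H2-L of 0.30 ± 0.79. H2-L was split by set rather than by group, since day 4 set libraries held 127 to 457 FPKM and the others 787 to 1809 FPKM, so the pooled controls bear on its value. Against controls of the same set only, its average log2 change was 0.84. With those controls the list's median was 0.16 for day 4 and -0.39 for day 6, so its day 4 direction depended on which controls were used. Among class I-like molecules 5 of 6 were tested, with 4 negative at day 4 and 5 at day 6, and Fcgrt, the neonatal Fc receptor, which also pairs with B2m, had a day 4 value of -0.69 ± 0.17 (adjusted p = 0.107). Mr1, which presents vitamin metabolites, and Procr, the protein C receptor, had average log2 changes of -0.10 ± 0.16 and -0.28 ± 0.34.

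Transcription factors that act on class I promoters had 14 of 15 listed genes tested, with 9 negative at day 4 and 11 at day 6 and medians of -0.12 and -0.24. Irf1, which binds the interferon-stimulated response element, stood at 407, 415 and 376 FPKM in controls, at 240 and 260 FPKM at day 4, and at 195 and 339 FPKM at day 6. All 4 knockout libraries were below all 3 controls, and the average log2 change was -0.65 ± 0.21 (unadjusted p = 0.0161, adjusted p = 0.235 in limma). Rela, a subunit of NF-kappaB, had an average log2 change of -0.11 ± 0.18.

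Interferon receptors and their signalling genes had 10 of 10 tested and medians of -0.21 at day 4 and 0.02 at day 6. Ifngr1, the ligand-binding chain of the interferon gamma receptor, stood at 190, 224 and 199 FPKM in controls, at 293 and 335 FPKM at day 4, and at 299 and 213 FPKM at day 6. It was above all controls in 3 of the 4 knockout libraries, with an average log2 change of 0.46 ± 0.18 (adjusted p = 0.307). Ifnar2, a chain of the type I receptor, had an average log2 change of -0.18 ± 0.13, and Socs3, a feedback inhibitor of cytokine signalling, of -0.33 ± 0.20. None of the 10 listed interferon genes reached the filter. Ifng lay between 0 and 0.420 FPKM, and Ifnb1 is listed at 0 in 6 of them.

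Genes induced mainly by interferon gamma had 19 of 21 listed genes tested, and 18 were negative at each day, with medians of -1.03 at day 4 and -1.01 at day 6. Both day 4 libraries were below all controls for 15 of 19 (22% of all tested genes), and both day 6 libraries for 5 of 19 (11.9%). At an unadjusted p under 0.05 and lower, 4 passed at day 4 (12.3% of all tested genes), 3 at day 6 (3.47%) and 6 on average (8.58%). Cxcl10, a chemokine that draws T cells, stood at 506, 637 and 542 FPKM in controls, at 198 and 45.2 FPKM at day 4, and at 105 and 393 FPKM at day 6. All 4 knockout libraries were below the controls, with an average log2 change of -2.0 ± 0.57 (adjusted p = 0.187). Serping1, a complement inhibitor, and Icam1, an adhesion molecule, had average log2 changes of -0.16 ± 0.21 and -0.51 ± 0.28.

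Like the class I genes, the interferon gamma list depended on day 6 replicate 1. Without it the day 6 median was 0.19 with 7 of 19 negative, and the median over both days was -0.42 against -1.02 with all libraries. Without day 6 replicate 2 the day 6 median was -1.96 with 19 of 19 negative, 17 of 19 genes below all controls (32.0% of all tested genes), and the count below controls over both days was 15 (12.5% of all tested genes) against 5 (6.58%) with all libraries. With controls of the same set only, the medians were -1.19 at day 4 and -0.74 at day 6.

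Interferon-stimulated genes of mainly the type I response had a median near 0 at day 4. Of 30 listed and tested, 13 were negative at day 4 and 26 at day 6, with median log2 changes of 0.06 and -0.40. These medians rested on single libraries. Without day 4 replicate 1 the day 4 median was -0.28, without day 4 replicate 2 it was 0.53, and without day 6 replicate 1 the day 6 median was 0.10. The difference between this list and the others was not tested. Lgals3bp, a secreted glycoprotein, had log2 changes of 0.18 ± 0.21 and -0.19 ± 0.21 at day 4 and day 6. Ifi27l2a, of the interferon-inducible Ifi27 family, had 0.72 ± 0.46 and -1.27 ± 0.46, and Bst2, which tethers budding virus, had -0.59 ± 0.41 and -0.86 ± 0.41. The list's level was highest in day 4 replicate 1, with a median of 0.64 above the genes' means over the 7 libraries on the log2 scale, whereas day 4 replicate 2 stood at -0.27. The class I genes stood at -0.14 and -0.24 in the same libraries.

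**Figure D4:**
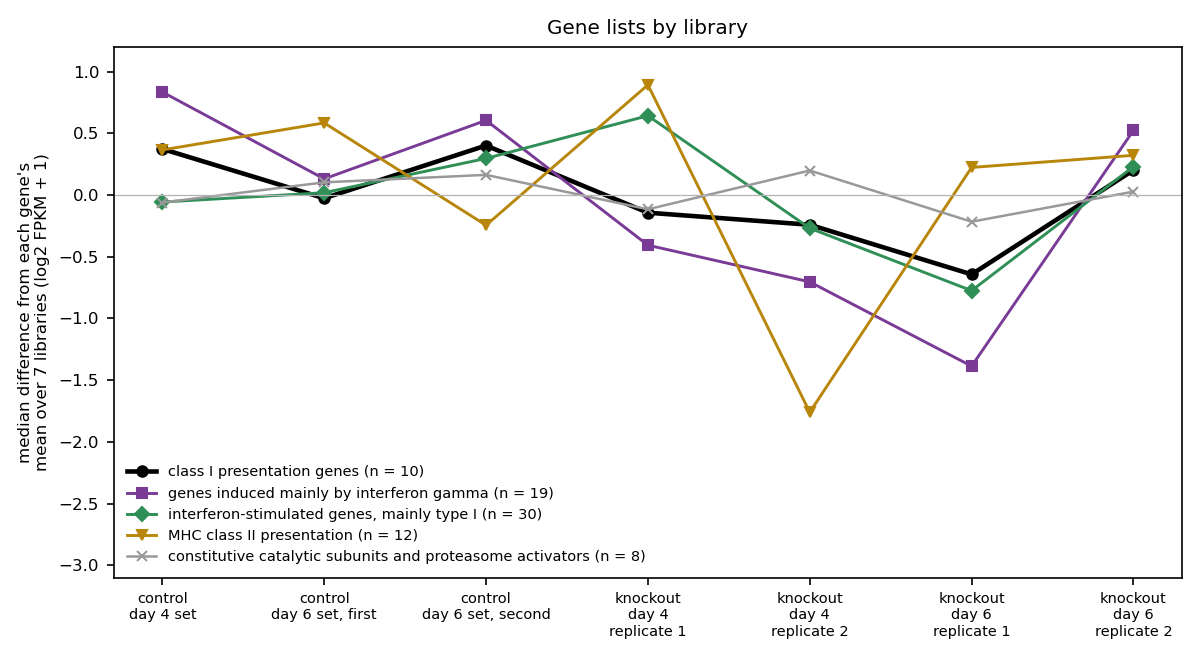
Median over each list's tested genes of the difference between a library and the gene's mean over the 7 libraries, on the log2(FPKM + 1) scale. The class I presentation genes run from -0.64 in day 6 replicate 1 to 0.40 in the second day 6 set control, the interferon gamma list from -1.39 to 0.84 with its extremes in day 6 replicate 1 and the day 4 set control, and the class II list has its lowest point, -1.76, in day 4 replicate 2.

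MHC class II genes, which present outside proteins and mark professional antigen-presenting cells, had 12 of 13 listed genes tested and medians of -0.55 at day 4 and -0.03 at day 6. Cd74, the invariant chain, stood at 317, 513 and 307 FPKM in controls, at 654 and 21.9 FPKM at day 4, and at 370 and 362 FPKM at day 6. The 2 day 4 libraries were thus the highest and the lowest of the 7, and the average log2 change was -0.80 ± 0.96. H2-Ab1 and H2-Aa, the class II chains, had average log2 changes of -0.59 ± 0.92 and -0.54 ± 0.89. For the class I genes these 2 libraries were closer, with replicate 2 to replicate 1 ratios from 0.543 for B2m to 1.29 for Tap2.

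Markers of other cell types varied between libraries beside these values. T and NK cell markers, 5 of 8 of which were tested, summed to 4.74 to 12.7 FPKM in controls, to 10.4 and 0.842 FPKM at day 4, and to 2.46 and 12.5 FPKM at day 6. The sums were highest in the day 4 set control and day 6 replicate 2, which were high for most class I genes, and lowest in day 4 replicate 2. Gzmb and Nkg7 were the largest parts of those 2 sums, with Gzmb at 5.58 and 5.18 FPKM and Nkg7 at 2.86 and 2.64 FPKM. Cd4 and Cd3d were instead highest in day 4 replicate 1, at 3.21 and 0.521 FPKM. Cd3e and Cd3g were highest in day 6 replicate 2, at 1.64 and 1.41 FPKM, with day 4 replicate 1 second. The second day 6 set control, among the highest 3 libraries for all 10 class I genes, had a sum of only 6.84 FPKM, and day 4 replicate 1 had 10.4 FPKM. Ptprc, which marks leukocytes, stood at 3.42 to 6.24 FPKM in controls, 8.47 and 0.532 FPKM at day 4, and 2.86 and 6.07 FPKM at day 6. No pan-leukocyte marker was listed at 0, and of the T and NK markers Ncr1 was listed at 0 in 2 libraries. Macrophage and dendritic cell markers summed to 105 to 176 FPKM in controls, 327 and 18.5 FPKM at day 4, and 279 and 151 FPKM at day 6, an order unlike that of the class I genes. B and plasma cell markers summed to 550, 353 and 320 FPKM in controls, to 2674 and 39.7 FPKM at day 4, and to 241 and 449 FPKM at day 6. Of these markers Ms4a1 was listed at 0 in day 4 replicate 2. Epithelial markers were highest in day 6 replicate 1, at 36.7 FPKM against 6.29 to 15.2 FPKM in the others. Fcgr1, a macrophage marker, was listed at 0 in day 4 replicate 2, and the epithelial markers Krt18, Krt19 and Cldn7 were listed at 0 in the second day 6 set control.

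Markers of the sorted mesenchyme and of blood vessels also moved at day 4, each in both directions. Of 8 listed and tested mesenchymal markers, 6 were negative at day 4 with a median log2 change of -0.87, and limma called 2 lower against 1.02% of all tested genes called in either direction. Cd34, a surface glycoprotein of stromal and endothelial cells, stood at 454, 506 and 509 FPKM in controls, at 220 and 170 FPKM at day 4, and at 298 and 353 FPKM at day 6. All 4 knockout libraries were below the controls, and the day 4 log2 change was -1.33 ± 0.21 (adjusted p = 0.0413 in limma). Wnt2b, a secreted Wnt ligand, stood at 22.4, 26.8 and 38.2 FPKM in controls, at 10.5 and 11.3 FPKM at day 4, and at 16.1 and 19.2 FPKM at day 6, with a day 4 log2 change of -1.31 ± 0.23 (adjusted p = 0.0489 in limma). Lum, a matrix proteoglycan, had a day 4 log2 change of -1.18 ± 0.38 (adjusted p = 0.168). The 2 positive at day 4 were Pdgfra and Dcn. Pdgfra stood at 61.3, 54.3 and 59.9 FPKM in controls, at 76.5 and 134 FPKM at day 4, and at 111 and 89.2 FPKM at day 6. All 4 knockout libraries were above the controls, and its day 4 log2 change was 0.78 ± 0.25 (adjusted p = 0.166 in limma). The Dcn value, 4.18 ± 3.58, rests on the 0 listed in the day 4 set control. At day 6 none of the 8 mesenchymal markers was called, and their median of 0.08 covered moves in both directions. At an unadjusted p under 0.05 in limma, Cd34 (-0.59 ± 0.21) and Wnt2b (-0.66 ± 0.23) were lower. Grem1 (1.03 ± 0.29) and Pdgfra (0.76 ± 0.25) were higher, where 7.26% of all tested genes passed in either direction. Blood endothelial markers, 9 of 11 of which were tested, had both day 4 libraries above all controls for 5 of 9 (12.5% of all tested genes) and a median log2 change of 0.96, with 0 called. Their sums were 21.4 to 27.9 FPKM in controls, 32.8 and 39.4 FPKM at day 4, and 30.4 and 30.1 FPKM at day 6, and none was listed at 0. Tek, the largest part of the control and day 6 sums, stood at 8.89 to 12.9 FPKM in controls. It stood at 8.77 and 6.04 FPKM at day 4, below all controls, and at 15.6 and 10.9 FPKM at day 6. Such a day 4 position was found for 1 of 9 markers, against 22% of all tested genes. The day 4 log2 changes of Tek and Cldn5 were -0.45 ± 0.24 and -0.50 ± 0.43, and the other 7 were positive. The part of the cells named by any of these markers in the class I values was not tested.

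The 5 genes outside the 10 whose log2(FPKM + 1) over the 7 libraries was most like the mean of the standardised class I genes were 3110056K07Rik (Pearson r = 0.988), Mmaa (0.981), Dtx3l (0.979), Uba7 (0.976) and Gbp6 (0.974). Dtx3l is a ubiquitin ligase, Uba7 is the activating enzyme for ISG15 and Gbp6 is a guanylate-binding protein, whereas Mmaa serves vitamin B12 metabolism in mitochondria. Gbp6 stood at 33.9, 15.4 and 22.3 FPKM in controls, at 8.38 and 6.32 FPKM at day 4, and at 2.01 and 23.8 FPKM at day 6. Its library order was the same as that of Psmb9. Of 11725 other tested genes, 89 had r over 0.9. With 7 libraries that share groups and sets these values are a description.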

How the data were processed

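RNA-seq of 7 sorted stromal libraries was analysed from a table of FPKM deposited by the authors. Per the labels' protocols, mRNA was captured on poly-T beads and primed with random hexamers. The submitters' processing notes name kallisto 0.46.1, DESeq2 1.40.1 and mm9 without roles, so the step that made the FPKM is not known. The table held 25493 entries, 293 repeated symbols (of which the entry highest on average was used) and 24908 symbols, of which 24411 matched mouse names. It holds no counts, so depth is unknown and no counting interval is given.

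Log2(FPKM + 1) was fitted in limma 3.58.1 (R 4.3.3) with a mean for each of the 3 groups over the 7 libraries and an intensity trend (4 residual and 3.78 prior degrees of freedom). The 11735 genes that reached 1 FPKM in 2 or more libraries were tested, and p-values were adjusted by Benjamini-Hochberg. Ratios were tested by exact permutation in scipy 1.17.1. The fitting was tested on simulated data. The text names the 10 genes, any called gene or otherwise the 3 most abundant of each related list, and the 5 genes most alike; 1 gene of a related list is not reported here. Psmb5 and Psmb7 are named as partners in the ratios, Tapbpl after its value was seen, and other genes as cell type markers. Members and lists were chosen with earlier results of these data known. Alternatives changed the pseudocount, filter, scaling, controls, prior, zeros and repeated symbols, and left out each library.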

Additional observations from a re-analysis of the deposited data

How the results depend on the processing

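The count of called class I genes was 0 of 10 in all 4 comparisons under every alternative run, including a pseudocount of 0.1, quantile or median ratio scaling and each library left out (range 0 to 0). A stricter filter on low values dropped Nlrc5 and left 9 genes. Of the log2 changes of single genes under alternatives, 477 kept their direction and 10 did not. Nlrc5 at day 6 was 0.059 with controls of the same set, and H2-D1 averaged over both days was -0.033 with the set as a term. Leaving out each library gave day 6 ranges of -1.24 to 0.38 for Tap1, -1.95 to 0.042 for Psmb9 and -0.60 to 0.53 for Nlrc5, and ranges averaged over both days of -0.12 to 0.13 for H2-D1 and -0.47 to 0.088 for Nlrc5. The day 6 median of the interferon gamma list ranged from -1.96 to 0.19. The medians of the type I list ranged from -0.28 to 0.53 at day 4, -0.85 to 0.098 at day 6 and -0.41 to 0.083 on average, and those of the other H2 heavy chains from -0.35 to 0.079, -0.39 to 0.22 and -0.35 to 0.13, with 0.16 at day 4 for controls of the same set. These list medians and the counts below the controls, 6 to 9 at day 4, 2 to 9 at day 6 and 1 to 6 over both days, were added after seeing the data. The ratio differences ranged from -1.15 to -0.73 for Psmb8 to Psmb5, -1.14 to -0.50 for Psmb9 to Psmb6 and -0.89 to -0.54 for Psmb10 to Psmb7. The cause of these shifts was not tested.

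No paired analysis was possible for the comparisons with wildtype because the control columns carry no replicate number from the titles. A replicate block on the knockout libraries alone called 0 of 10 between the days. Deviations of same-numbered knockout libraries correlated at -0.028 over genes, so the numbers are not read as a pairing.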

Other observations

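The genes of this paragraph were chosen after their values were seen. The immunity-related GTPases Iigp1 and Igtp, which attack the vacuoles of intracellular parasites, had the same library order as Psmb9. Iigp1 stood at 295, 89.1 and 156 FPKM in controls (day 4 set first), at 57.5 and 55.5 FPKM at day 4, and at 18.5 and 242 FPKM at day 6. Igtp stood at 72.1, 22.4 and 44.8 FPKM, then at 18.4 and 14.7 FPKM, and at 6.56 and 57.4 FPKM. Gzmb, a killer-cell protease, stood at 5.58, 0.653 and 3.70 FPKM, then at 1.76 and 0.129 FPKM, and at 0.170 and 5.18 FPKM. The day 4 set control and day 6 replicate 2 were the highest 2 libraries for all 3 genes. Among the other listed T and NK cell markers, only Nkg7 had the same highest 2 libraries. Cd4 and Cd3d were highest in day 4 replicate 1, and Cd3e, Cd3g, Cd8a and Ncr1 had that library second. Isg15, a ubiquitin-like protein of the type I response, was also highest in day 4 replicate 1.

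Some H2 genes differed between libraries along the day 4 and day 6 sets rather than the groups. H2-L stood at 127, 787 and 1809 FPKM in controls, at 286 and 457 FPKM at day 4, and at 1273 and 1439 FPKM at day 6. H2-Bl stood at 0.0659, 19.7 and 28.3 FPKM in controls, at 1.09 and 1.55 FPKM at day 4, and at 35.4 and 4.72 FPKM at day 6. Both genes were lower in every library of the day 4 set than in every library of the day 6 set. H2-Q2 stood at 0.269 FPKM in the day 4 set control and at 32.2 to 65.3 FPKM in the other 6 libraries. H2-Q4 stood at 9.07 FPKM in the day 4 set control and at 46.2 to 116 FPKM in the others. H2-Q2 and H2-Q4 were thus low in that control alone. The strain and H2 haplotype of the mice are not given in the sources used here, and their part in these values, and that of reads shared between near-identical copies, was not tested.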
